A study of Mus musculus with 8 samples.

Results

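A set of 9 macrophage genes was followed in mouse white fat treated with a drug that drives fat breakdown. The mice were wild type or knockouts of Ppara, which encodes a nuclear receptor. The genes were the surface and lysosomal markers Adgre1, Cd68, Mpeg1, Csf1r and Cd14, and the antibody receptors Fcgr2b and Fcgr3. With them were the signalling adaptors Fcer1g and Tyrobp. Members were chosen by name, and each was read from its brightest probe set, the group of probes that stands for a transcript on the array. All 9 were among the 8251 genes with a single symbol there. After the filter on dim probe sets 8 of 9 remained, beside 6128 genes in all, and Fcgr3 did not pass.

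The tissue was the epididymal white fat pad. Its RNA was hybridised to 8 Affymetrix U74Av2 arrays, and each of 8 groups had 1 array. Wild type mice were a control without drug, a group at 8 hours after 30 nmol of CL 316243, and 2 groups given the same drug at 3 nmol per hour for 3 days or for 6 days. Ppara KO mice, labelled as knockouts of the gene, formed the same 4 groups. CL 316243 selectively activates the β3-adrenergic receptor, through which fat cells are told to break down stored lipid. The labels used here give no age, strain or account of how the knockout was made. Nor is it stated whether an array held 1 animal or a pool. With 1 array per group, the spread behind each p-value is how far the arrays depart from the fitted terms, not a spread of replicates. It may be technical in part, and in the fit of genotype plus time it takes in any genotype difference that changes with time. From 8 hours to 3 days the dosing scheme changes together with the time.

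Macrophages live in fat in small numbers and gather there when fat cells are stressed or release much lipid. They recognise antibody-coated particles through Fc receptors. Activating Fc receptors have no signalling tail of their own and pair with the γ chain encoded by Fcer1g, whose ITAM motif recruits the kinase Syk. Fcgr2b carries an inhibitory motif instead and restrains that signal. Tyrobp encodes DAP12, a second ITAM adaptor that serves receptors such as TREM2. In a bulk sample of tissue, fewer cells of a type and less RNA per cell cannot be told apart.

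Values are intensities on a linear scale, and differences are on the log2 scale after every intensity under 171, the 40th percentile of the table, was set to that floor. Where the dimmer of both arrays lay at the floor, the difference between those arrays is a lower bound and is given as "at least". A fitted change that takes in arrays at the floor is not a bound. A change at a time is the mean over both genotypes against the controls from limma, with its standard error, 2 arrays per time and 3 residual degrees of freedom. A gene was called when its p-value, adjusted by Benjamini-Hochberg over the 6128 genes, was under 0.05. For a single treated array against the control of its genotype there is no replicate and no test, and 2-fold differences were counted.

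The macrophage genes had different courses in treated fat. At 8 hours 3 of 8 rose (Mpeg1, Cd14 and Fcgr2b), against 6.49% of all genes. At 3 days 0 of 8 passed (0.441% of all genes) and at 6 days 0 of 8 passed (0.228%), although all 8 estimates were positive at each time. In wild type at 6 days, Cd14 and Fcgr2b lay below their control. The counts with an unadjusted limma p under 0.05 were 5 at 8 hours, 8 at 3 days and 4 at 6 days. Over all genes those shares were 32.4%, 21.6% and 18.2%. The median change of the 8 was 2.03 at 8 hours, 2.15 at 3 days and 1.55 at 6 days, where the median over all genes was -0.02, -0.03 and 0.00. These medians depend on single arrays. Without the wild type 8 hour array the 8 hour median was 1.33. The 6 day median was 0.51 with Ppara KO at 6 days dropped and 2.58 with wild type at 6 days dropped. For 5 of the 8 (Adgre1, Cd68, Mpeg1, Csf1r and Tyrobp) all 6 treated arrays were brighter than both controls, which held for 8.39% of all genes, a count added after the values were seen.

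**Figure D1:**
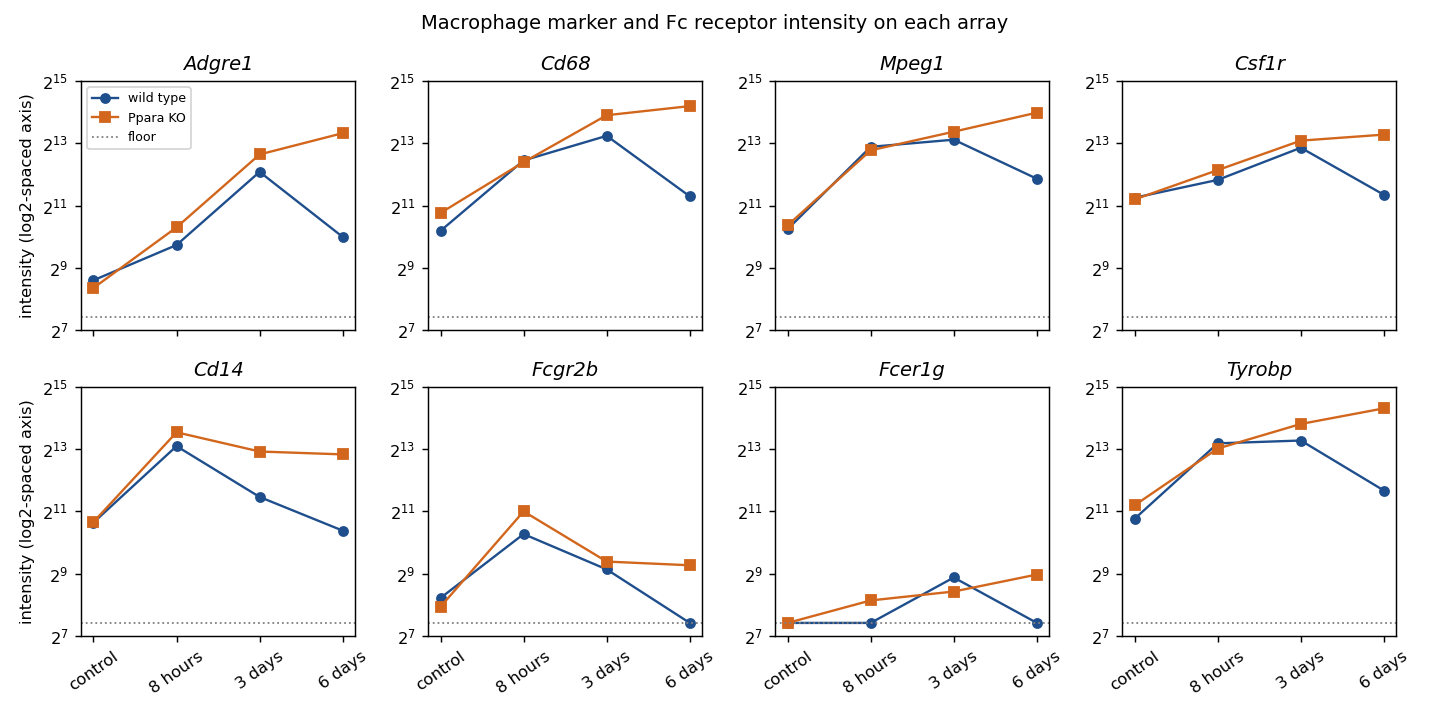
Intensity of each of the 8 measured genes on the 8 arrays, 1 array per point, with a log2-spaced vertical axis and time as ordered categories; values under the floor of 171 (dotted line) are drawn at it. In both genotypes Cd14 and Fcgr2b are brightest at 8 hours, and at 6 days every gene is brighter in Ppara KO (squares) than in wild type (circles).

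Adgre1 encodes F4/80, an adhesion receptor that is the standard surface marker of mouse macrophages. In wild type its intensity was 388 in the control, 851 after 8 hours, 4336 after 3 days and 1019 after 6 days. In Ppara KO the values were 327, 1261, 6392 and 10264 in the same order. Both genotypes were low in the controls and at 8 hours and high at 3 days, and they parted at 6 days. The change was 1.54 ± 0.80 at 8 hours (limma adjusted p 0.248), 3.89 ± 0.80 at 3 days (0.0831) and 3.18 ± 0.80 at 6 days (0.133), so it passed at no time. At 3 days 0.0490% of all genes had a larger change. A second probe set of Adgre1 stayed under the floor on all 8 arrays, with 115 as its highest value.

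Cd68 encodes macrosialin, a glycoprotein of late endosomes and lysosomes that phagocytes carry in abundance. Wild type intensities were 1167 in the control, 5593 after 8 hours, 9676 after 3 days and 2515 after 6 days. Ppara KO intensities were 1737, 5387, 15308 and 18755. At 8 hours the genotypes were close, and at 6 days wild type was the lower by far. The change was 1.95 ± 0.67 at 8 hours (limma adjusted p 0.104), 3.10 ± 0.67 at 3 days (0.0851) and 2.27 ± 0.67 at 6 days (0.164).

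Mpeg1 encodes perforin-2, a pore-forming protein that macrophages use against engulfed bacteria. It stood at 1212, 7572, 8882 and 3721 in wild type, from control through 8 hours and 3 days to 6 days. In Ppara KO it stood at 1319, 7006, 10611 and 16208. Its 8 hour values were close to its 3 day values in wild type, and it rose at 8 hours by 2.53 ± 0.54 (limma adjusted p 0.0326). The later changes were 2.94 ± 0.54 at 3 days (0.0709) and 2.62 ± 0.54 at 6 days (0.0925).

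Tyrobp followed Mpeg1 closely. Wild type values were 1740, 9315, 9917 and 3257, and Ppara KO values were 2347, 8302, 14341 and 20298. Its brightest array was thus Ppara KO at 6 days, as for Adgre1, Cd68, Mpeg1 and Csf1r. The change was 2.12 ± 0.64 at 8 hours (limma adjusted p 0.0764), 2.56 ± 0.64 at 3 days (0.106) and 2.01 ± 0.64 at 6 days (0.188), none of which passed.

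Csf1r encodes the receptor tyrosine kinase for CSF1 and interleukin 34, on which most tissue macrophages depend for survival. It started from a brighter control, 2439 in wild type and 2349 in Ppara KO. Wild type then read 3630, 7422 and 2603, and Ppara KO 4515, 8695 and 9941. At 6 days wild type was back near its control value. The changes of 0.76 ± 0.48, 1.75 ± 0.48 and 1.09 ± 0.48 were small beside those of Cd68, with limma adjusted p of 0.333, 0.128 and 0.307.

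Cd14, the co-receptor that hands bacterial lipopolysaccharide to TLR4, was brightest at 8 hours. Wild type intensities were 1597 in the control, 8755 after 8 hours, 2824 after 3 days and 1334 after 6 days. Ppara KO intensities were 1616, 11913, 7767 and 7282. The controls were nearly equal, and after 8 hours wild type came to read near its control while Ppara KO stayed well above its own. Cd14 rose at 8 hours by 2.67 ± 0.57 (limma adjusted p 0.0323). Its changes at 3 days (1.54 ± 0.57, 0.197) and 6 days (0.96 ± 0.57, 0.426) did not pass.

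Fcgr2b, the inhibitory receptor for IgG, had the same early peak at a lower level. Wild type values were 298, 1236, 563 and 170, the last at the floor, and Ppara KO values were 245, 2049, 670 and 617. It rose at 8 hours by 2.56 ± 0.48 (limma adjusted p 0.0257), the lowest adjusted p of the 8. At 3 days its change was 1.18 ± 0.48 (0.231) and at 6 days 0.27 ± 0.48 (0.810). The 6 day value averages a wild type array at least 0.80 below its control and a Ppara KO array 1.33 above. Without the Ppara KO control the 6 day change turned to -0.35, and without the Ppara KO 6 day array to -0.54.

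The activating side of the Fc receptors was poorly covered. Fcgr3, which encodes an activating IgG receptor, read between 104 and 143 on all 8 arrays, under the floor throughout, so no change could be measured with this probe set. Fcer1g had 2 probe sets. The brighter read 39, 165, 470 and 25 in wild type and 42, 282, 344 and 502 in Ppara KO, so only 4 of 8 arrays exceeded the floor. The other read at most 99 and on no array exceeded it. Against its control, wild type was at least 1.46 higher at 3 days, and Ppara KO at least 0.72, 1.01 and 1.55 higher at 8 hours, 3 days and 6 days. In wild type at 8 hours and 6 days both the treated and the control array lay under the floor, and no difference is given. The fitted changes of 0.36, 1.23 and 0.78 (limma adjusted p 0.655, 0.206 and 0.429) enter those pairs as equal. They became 2.11, 3.01 and 1.66 with the floor at an intensity of 50, with 0 of 3 past the test, so their size is set by the floor. The names of the probe sets used for Cd68, Fcgr2b and Fcer1g end in suffixes that the maker gives to sets whose probes can match more than 1 transcript, so signal from related genes cannot be told apart there.

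**Figure D2:**
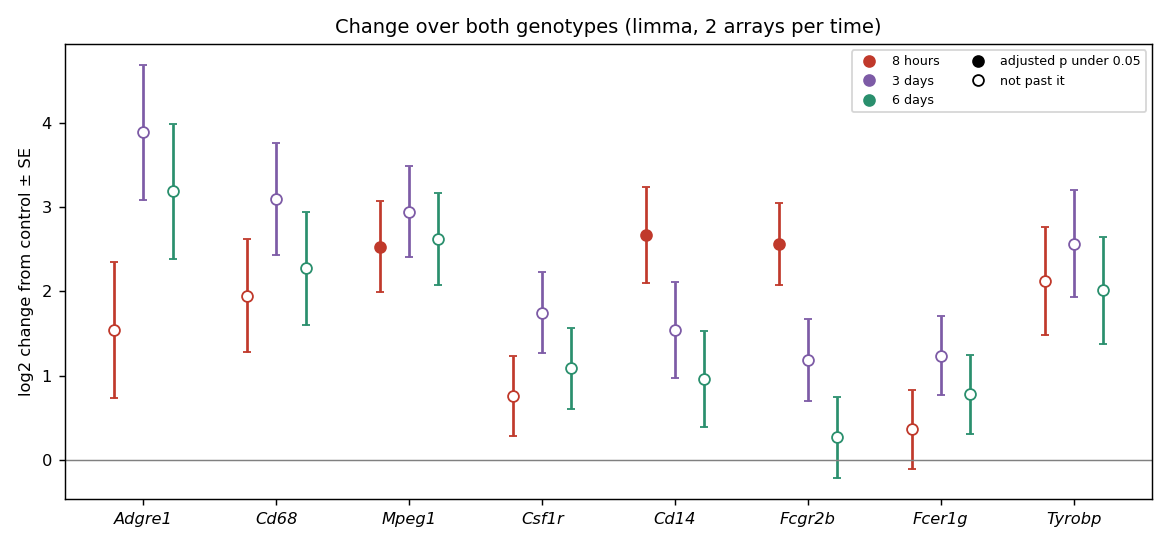
Change from control over both genotypes for each gene at 8 hours, 3 days and 6 days, as the limma log2 estimate with its standard error (bars), 2 arrays per time. Filled points passed an adjusted p of 0.05: Mpeg1, Cd14 and Fcgr2b at 8 hours, and no gene at 3 or 6 days.

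The upstream bases of Cd68 and Mpeg1, which were high from 8 hours to 3 days, are set beside those of Fcgr2b, which peaked at 8 hours. They are the 250 bases before the transcription start in RefSeq, build GRCm38.p6, written 5′ to 3′ on the gene's strand. Sequences were read for 5 of the 9 genes. Adgre1 and Tyrobp had no entry, and Csf1r and Cd14 were left out. Cd14, which also peaked at 8 hours, is therefore not compared. Capitals mark matches to 3 motifs, each searched on both strands, with no match overlapping another. The first is GAGGAA, the core bound by PU.1, a factor that myeloid cells need. The second is TGANTCA, the site bound by AP-1 factors, which act early after many stimuli. The last is TATAAA, which the general transcription machinery can bind near a start.
Cd68, chr11:69666171-69666420, minus strand: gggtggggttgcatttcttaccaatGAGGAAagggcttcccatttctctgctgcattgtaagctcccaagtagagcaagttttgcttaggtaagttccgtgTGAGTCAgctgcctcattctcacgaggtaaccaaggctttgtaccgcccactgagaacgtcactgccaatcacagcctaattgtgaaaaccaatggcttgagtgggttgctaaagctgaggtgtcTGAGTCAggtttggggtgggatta
Mpeg1, chr19:12460520-12460769, plus strand: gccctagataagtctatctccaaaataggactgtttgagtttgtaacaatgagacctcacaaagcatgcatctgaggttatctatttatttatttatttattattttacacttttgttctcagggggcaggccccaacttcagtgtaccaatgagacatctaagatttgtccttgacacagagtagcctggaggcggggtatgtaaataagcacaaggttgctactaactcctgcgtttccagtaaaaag
Fcgr2b, chr1:170976072-170976321, minus strand: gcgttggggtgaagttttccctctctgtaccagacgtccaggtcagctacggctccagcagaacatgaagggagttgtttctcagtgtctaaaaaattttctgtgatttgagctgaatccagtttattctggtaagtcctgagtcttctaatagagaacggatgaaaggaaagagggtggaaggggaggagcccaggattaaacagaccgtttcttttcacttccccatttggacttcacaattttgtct

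Cd68 held 1 GAGGAA, whose first base lies 225 bases before the start, and 2 TGANTCA, at 149 and 24 bases. Mpeg1 and Fcgr2b held none of the 3 motifs in this window. Of the other genes read, Fcer1g held none, and Fcgr3 held a GAGGAA on the opposite strand, 6 or 15 bases before its listed starts. Over 32851 starts in the table, 23.3% held GAGGAA, 6.75% TGANTCA and 12.4% TATAAA in the same 250 bases. These matches describe the letters of the window and were not tested for binding.

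Within a genotype the 2-fold counts were alike until 6 days. At 8 hours 6 of 8 genes were at least 2-fold above control in wild type (8.11% of all genes) and 6 of 8 in Ppara KO (11.2%). At 3 days these counts were 6 in wild type (5.6%) and 8 in Ppara KO (8.65%). At 6 days they were 3 in wild type (3.56%), namely Adgre1, Cd68 and Mpeg1, and 8 in Ppara KO (9.46%). The median of the 8 in wild type was 2.16, 2.06 and 0.50 at the successive times, and in Ppara KO 1.88, 2.44 and 2.64.

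From 8 hours to 3 days the estimates had opposite signs, and 0 of 8 passed either way (1.99% of all genes were higher and 2.42% lower). Adgre1 was higher by 2.35 ± 0.80 (limma adjusted p 0.155), with 2.35 in wild type and 2.34 in Ppara KO. Cd68 was higher by 1.15 ± 0.67 (0.364) and Csf1r by 0.99 ± 0.48 (0.286). Fcgr2b was lower by 1.37 ± 0.48 on the log2 scale (estimate -1.37, 0.162) and Cd14 by 1.12 ± 0.57 (estimate -1.12, 0.305). Both of these were lower at 3 days than at 8 hours in each genotype. Mpeg1 and Tyrobp, had estimates of 0.41 and 0.44, inside their standard errors of 0.54 and 0.64.

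From 3 days to 6 days, at the same dose rate, the averages combine different courses. All 8 estimates were negative, between -0.92 and -0.32, and 0 of 8 passed in either direction, as for 0% of all genes. In wild type all 8 genes were lower at 6 days than at 3 days. Fcgr2b and Fcer1g lay at the floor at 6 days and were at least 1.72 and at least 1.46 lower. The differences of the rest ran from -1.08 for Cd14 to -2.09 for Adgre1. In Ppara KO the differences of all 8 ran from -0.12 for Fcgr2b to 0.68 for Adgre1, with 6 of 8 above 0.

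The genotypes were furthest apart at 6 days. Ppara KO minus wild type had a median over the 8 genes of 0.01 in the controls, 0.38 at 8 hours, 0.39 at 3 days and 2.29 at 6 days. Genes at least 2-fold brighter in Ppara KO numbered 0 of 8 in the controls (3.28% of all genes), 0 at 8 hours (1.75%), 1 at 3 days, Cd14 (2.55%), and 8 at 6 days (9.33%). At 6 days the difference was 3.33 for Adgre1, 2.90 for Cd68, 2.64 for Tyrobp, 2.45 for Cd14, 2.12 for Mpeg1 and 1.93 for Csf1r. For Fcgr2b and Fcer1g, with wild type at the floor, it was at least 1.85 and at least 1.55. Each 6 day value is 1 array against 1, so the genotype and the particular animals or array cannot be told apart there.

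**Figure D3:**
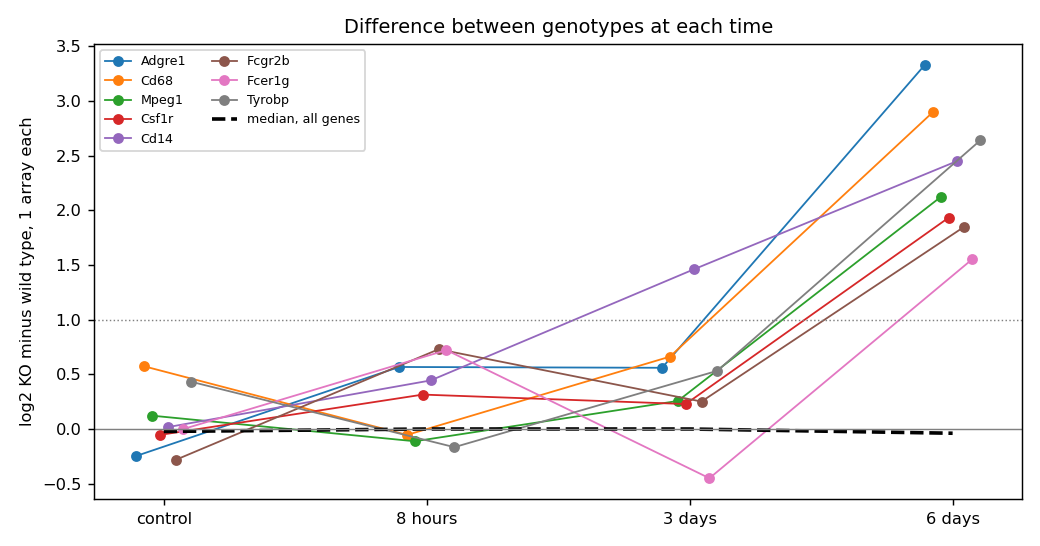
Ppara KO minus wild type in log2 intensity at each time, 1 array each, for the 8 genes (points slightly offset sideways) and the median over all genes (dashed); the dotted line marks 2-fold. The 8 genes lie between -0.45 and 1.46 up to 3 days and between 1.55 and 3.33 at 6 days.

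Over all 4 times no gene of the 8 differed by genotype in the limma test, and 0% of all genes did. The estimates, with 4 arrays per genotype, were between 0.46 for Fcer1g and 1.09 ± 0.40 for Cd14 (adjusted p 0.302 for Cd14, the lowest). The test of a genotype difference in drug response, pooled over the 3 treated times, also called 0 of 8 and 0% of all genes. Its adjusted p ran from 0.590 to 0.869. A term for genotype at 6 days against the other times was added because the 6 day gap had been seen, so it is no independent evidence of that gap. It gave 3.04 ± 0.44 for Adgre1, 2.50 ± 0.39 for Cd68 and 2.37 ± 0.39 for Tyrobp. The lowest adjusted p by this limma fit was 0.185, so 0 of 8 passed, as did 0% of all genes. This depends on how limma estimates the spread. With an intensity trend and robust prior the same term called 5 of 8 (Adgre1, Cd68, Mpeg1, Csf1r and Tyrobp), with adjusted p from 0.0341 to 0.0429, against 0.734% of all genes. Both rest on 1 array per genotype at 6 days.

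Because the fit takes the genotype difference as alike at all times, the wider gap at 6 days enters the residual spread that each test of time uses. Dropping a 6 day array takes that gap out of the spread. It is set out here with the gap already seen, so its calls are no independent evidence. Leaving out the wild type 6 day array, 6 of 8 genes rose at 8 hours (8.73% of all genes), namely Adgre1, Cd68, Mpeg1, Cd14, Fcgr2b and Tyrobp. At 3 days 5 of 8 rose (4.44%): Adgre1 by 3.89 ± 0.27, Cd68 by 3.10 ± 0.24, Mpeg1 by 2.94 ± 0.19, Tyrobp by 2.56 ± 0.24 and Csf1r by 1.75 ± 0.19, with limma adjusted p from 0.0132 to 0.0158. At 6 days, where Ppara KO alone then stood, the same 5 were called (3.31%). From 8 hours to 3 days Adgre1 and Csf1r rose (3.69%). Leaving out the Ppara KO 6 day array in its place gave the same 8 hour and 3 day counts, and 0 of 8 at 6 days. When any one of the other 6 arrays was dropped in the same way, 0 of 8 were called at every time.

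Other genes of the same pathways were read from lists. Of 9 other Fc receptor genes listed, 3 could be tested. Fcgr1, the high-affinity IgG receptor, read 466, 2157, 1981 and 562 in wild type and 402, 2120, 5068 and 4689 in Ppara KO. Ppara KO minus wild type was already 1.36 at 3 days and was 3.06 at 6 days. The change of Fcgr1 at 3 days was 2.87 ± 0.78 (limma adjusted p 0.125). Fcgrt, which encodes the neonatal Fc receptor that recycles IgG and is made by many cell types, fell at 8 hours by 1.32 ± 0.19 (adjusted p 0.0134). The other gene, Pigr, which encodes the polymeric immunoglobulin receptor, passed at no time.

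Signalling genes downstream of the ITAM adaptors were counted next. Of 17 measured, Fgr and Lcp2 rose at 8 hours, 0 passed at 3 days or 6 days, and 16 of 17 had a positive change at 3 days, with a median of 0.96. Lat2, an adaptor phosphorylated after Fc receptor binding, read 304, 1192, 2583 and 658 in wild type and 313, 1109, 3822 and 6228 in Ppara KO. At 6 days 14 of the 17 were at least 2-fold brighter in Ppara KO, against 9.33% of all genes. Of 2 measured receptors that pair with ITAM adaptors, Clec4d rose at 8 hours (limma estimate 3.60 ± 0.68, adjusted p 0.0257). Both its controls lay at the floor, and it was at least 3.34 higher in wild type and at least 3.86 in Ppara KO. The other, Cd300c2, stood at 1.72 ± 0.51 (0.0734).

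Growth factors and partners of Csf1r and Cd14 followed. Of 11 genes of the colony-stimulating factor axis, Csf3 and the receptor chain Csf2rb rose at 8 hours, and 0 passed at 3 or 6 days. Csf1, the main ligand of Csf1r, read 1406, 2376, 1231 and 837 in wild type and 968, 3022, 1652 and 1360 in Ppara KO. Its 8 hour change of 1.20 ± 0.31 had a limma adjusted p of 0.0561, and at 3 days it stood at 0.29 ± 0.31, when Csf1r stood at 1.75 ± 0.48. Of 6 measured genes of the CD14 and Toll-like receptor complex, 0 passed at any time, with a median change of 0.25 at 8 hours and 0.11 at 3 days. Of 9 genes listed as macrophage transcription factors, Cebpb and Bhlhe40 rose and Cebpa fell at 8 hours, and 0 passed at 3 or 6 days. Cebpa was bright in the controls, at 41135 in wild type and 40328 in Ppara KO. Which cells of the fat pad gave its signal was not tested. Spi1, which encodes PU.1, stood at 2.46 ± 0.68 at 8 hours (adjusted p 0.0639) and 3.05 ± 0.68 at 3 days (0.0890).

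Likeness to each gene was measured as the root-mean-square difference of log2 values, centred per gene, over the 8 arrays, and is a description with no test. Nearest to Adgre1 were Cd48 (0.40), Lat2 (0.41) and C3ar1 (0.48). Nearest to Cd68 were Apobec1 (0.17), Evi2a (0.20) and C3ar1 (0.24), and nearest to Tyrobp were Lgals3 (0.19), Rac2 (0.21) and Lgmn (0.21). Mpeg1 lay nearest to Spi1 (0.22), Ccl8 (0.26) and Tyrobp (0.28), and Csf1r to Lyz2 (0.14), Laptm5 (0.17) and Irf5 (0.18). Cd14 lay nearest to Cd44 (0.24), Lcp2 (0.29) and Slc7a7 (0.30), while Fcgr2b lay nearest to Tubb2a (0.22), Ifitm6 (0.26) and Plaur (0.29). Fcer1g, at the floor on 4 of 8 arrays, lay nearest to St3gal5, Snx5 and Rasa1. For the mean of the 8 the nearest were Otulinl (0.11), Rac2 (0.14) and Tlr6 (0.16).

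Among themselves the 8 fell into close and distant pairs by the same measure. Tyrobp lay 0.28 from both Cd68 and Mpeg1, and Cd68 lay 0.38 from Mpeg1. Csf1r lay 0.29 from Fcer1g, and Cd14 lay 0.44 from Fcgr2b. The most distant pair was Adgre1 and Fcgr2b, at 1.74. Fcgr2b, Fcgr3 and Fcer1g lie in 1 neighbourhood of chromosome 1 by gene order in the RefSeq table. Of the genes between Fcgr2b and Fcer1g, Sdhc (-0.19), Pcp4l1 (0.60) and Nr1i3 (-0.28) were tested, with log2 changes at 8 hours in brackets, against 2.56 for Fcgr2b.

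Markers of other cell types were read on the same arrays. Pan-leukocyte genes, 13 measured, were higher in the same arrays as the 8, with a median change of 2.19 at 3 days. At each time 0 were called. All 13 were at least 2-fold brighter in Ppara KO at 6 days, against 9.33% of all genes. Of 20 other macrophage markers 0 passed at any time, with medians of 0.70, 1.99 and 1.36, and 17 of 20 were at least 2-fold brighter in Ppara KO at 6 days. Cell cycle genes, 22 measured, had 1, 6 and 3 rises at the 3 times, and 16 were at least 2-fold brighter in Ppara KO at 6 days. Neutrophils also carry Cd14, Tyrobp and Fc receptors. Of 14 neutrophil markers on the array, 5 lay under the filter: Mmp8, Ltf, Ngp, Mpo and Ly6g. Of the 9 measured, 5 rose at 8 hours, and 4 fell from 8 hours to 3 days. Their summed intensity was 2998 in the wild type control and 36737 at 8 hours. In Ppara KO it was 18320 in the control and 47767 at 8 hours. Between the controls, 1 of the 9 was at least 2-fold brighter in Ppara KO (3.28% of all genes), and the median difference was 0. The higher control sum of Ppara KO therefore does not hold for most of the list. S100a8 read 253, 12282, 746 and 269 in wild type and 327, 17892, 1282 and 997 in Ppara KO, so its peak lay on the arrays where Cd14 and Fcgr2b peaked. The part of neutrophils in the 8 hour rises was not tested.

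**Figure D4:**
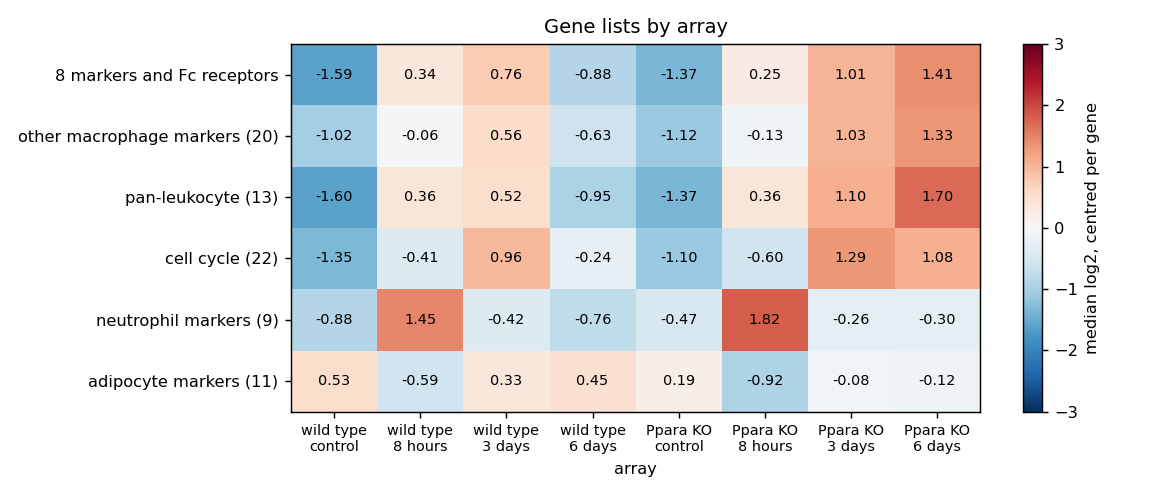
Median log2 intensity, centred per gene, of the 8 genes and of 5 gene lists (number of genes measured in brackets) on each array; colour and printed value show the same quantity. The 8 genes, other macrophage markers and pan-leukocyte genes are lowest in both controls and highest in Ppara KO at 6 days (1.41, 1.33 and 1.70), while neutrophil markers peak at 8 hours (1.45 and 1.82).

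Markers of B cells, mast cells, dendritic cells and eosinophils, some of which share these receptors, were mostly dim or few. Among 7 B cell genes Ighm fell at 8 hours, among 6 mast cell genes Hdc rose, among 6 dendritic cell genes 0 passed, and Alox15, the 1 measured eosinophil gene, rose. In the T and NK list 12 of 14 genes on the array lay under the filter, and Zap70 fell at 8 hours. Of 9 endothelial genes 0 passed, with medians between -0.61 and -0.15. Adipocyte markers were bright throughout, with summed intensities over 11 genes between 125095 and 296595. Of these, 8 fell at 8 hours, and 1, Lep, at 3 and 6 days. The share of all genes that fell at these times was not counted, here or for the other lists. The summed intensity of the 11 was lower in Ppara KO than in wild type at each time. With wild type first, it was 296595 and 252035 in the controls, 151308 and 125095 at 8 hours, and 259476 and 201037 at 3 days. At 6 days it was 290890 in wild type and 200659 in Ppara KO. Of the 11, 3 were then at least 2-fold dimmer in Ppara KO, against 5.76% of all genes.

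Some arrays carried genes of neighbouring organs. Epididymal genes, 4 measured, summed to 118903 in the Ppara KO control, 16432 in Ppara KO at 8 hours and 9679 in wild type at 6 days, against 972 to 4056 on the other 5 arrays. Pancreatic genes, 7 measured, summed to 73746 in the wild type control and 21040 in Ppara KO at 8 hours, against 2586 to 3926 elsewhere. Their part in the values of the macrophage genes was not tested. The control arrays differed by at most 0.57 in any of the 8 genes, but each carried such a signal, so neither is a clean reference. Ppara itself was lower in the knockout at all 4 times, by 1.51 ± 0.28 on the log2 scale (limma estimate -1.51, adjusted p 0.285). In the knockout it read 214, 254, 292 and 336 from control to 6 days, so some signal above the floor remained with this probe set.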

How the data were processed

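The deposited value table held 1 linear intensity per probe set and array, made by the authors; how background was corrected and probes were summarised and scaled is not stated in the labels or the header. From the values, all 8 arrays had a median intensity of 320 and 99th percentiles from 20270 to 20306, so they had been put on a common scale, and 11.9% of values were below 0. An array has no read depth, so the number of arrays limits precision, and the intensity floor limits dim genes. Of 12488 probe sets, 66 were controls, 10833 had 1 gene symbol in the platform annotation (10817 updated through RefSeq, GRCm38.p6), 396 had several and 1237 were not listed. No column of values was left unused.

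Intensities under the floor of 171 were set to it and log2 was taken. Each gene was read from its brightest probe set by the mean of the 8 arrays, and 6128 of 8251 genes exceeded the floor on at least 2 arrays. limma 3.58.1 in R 4.3.3 fitted genotype plus time on all 8 arrays, and a second fit added a genotype by drug term with 2 residual degrees of freedom. P-values were adjusted by Benjamini-Hochberg over all genes tested. The fits were tested on simulated data. Alternatives were another floor, an offset, no filter, quantile normalisation, median scaling, the mean of probe sets, a trended robust prior and each array left out.

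The members and gene lists were chosen with earlier results of these data known, so no list count is independent support. Genes named beside the members were up to 4 per list with the largest absolute limma change at any time, and the 3 nearest in pattern to each member. Genes outside that rule that are named as the calls of a list, and Ppara as a check of genotype, were added, the former after their values were seen. Columns were grouped by the labels. Promoter bases were copied from RefSeq, GRCm38.p6.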

Additional observations from a re-analysis of the deposited data

Results flagged for a closer look

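From 3 days to 6 days 6 of the 8 genes were lower in wild type and higher in Ppara KO. The Ppara KO change minus the wild type change was 2.77 for Adgre1, 2.24 for Cd68, 2.11 for Tyrobp, 1.87 for Mpeg1 and 1.70 for Csf1r on the log2 scale, and at least 2.0 for Fcer1g. At 6 days against control Cd14 and Fcgr2b were lower in wild type and higher in Ppara KO, and the same difference was 2.43 for Cd14 and at least 2.13 for Fcgr2b. Each rests on 1 array per genotype and time, and the difference was not tested for these contrasts.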

How the results depend on the processing

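With the floor at the 25th percentile, an intensity of 50, 1 of 8 genes rose at 8 hours (Fcgr2b), and without the filter 0 did. With log2(value + 100) and no floor, 1 rose at 3 days (Mpeg1). The term for genotype at 6 days, itself added after seeing the data, called 5 of 8 with an intensity trend and robust prior (45 genes in all). It called 0 of 8 under the other 6 settings, though 58 genes in all without the filter, and 0 of 8 with any array but a 6 day one left out. It could not be fitted without a 6 day array. Other settings left the remaining counts of these genes within 1.5 times those reported. With 1 array left out, the called count ran from 0 to 6 at 8 hours, from 0 to 5 at 3 days, from 0 to 5 at 6 days and from 0 to 2 from 8 hours to 3 days. The median change ran from 1.33 to 2.58 at 8 hours, from 1.79 to 2.55 at 3 days and from 0.51 to 2.58 at 6 days. The highest counts came without a 6 day array, and the lone array left in an arm is then assumed to vary like the others. The 6 day change of Fcgr2b ran from -0.54 to 1.07 and was negative without the Ppara KO control (-0.35) or the Ppara KO 6 day array (-0.54). Over single genes and times, other settings gave 162 values on the same side of the threshold, 1 stronger and 5 weaker. The same side does not mean the same size: the floor of 50 moved Fcer1g from 0.36 to 2.11 at 8 hours, from 1.23 to 3.01 at 3 days and from 0.78 to 1.66 at 6 days. No paired analysis was possible because each group holds 1 array and the labels give no replicate numbers to pair, while genotype and time are already terms of the fit. Genes near the floor, Fcer1g and Fcgr3, are limited by signal over background.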
